A study of Homo sapiens with 14 samples.

Results

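TC-32, an established Ewing sarcoma cell line that carries the EWSR1::FLI1 fusion, was profiled as wild-type cells, labelled as having no treatment, by CUT&RUN, in which an antibody directs a nuclease to its target and the released DNA is sequenced. The regions described here are gene promoters that an antibody to FLI1 pulled out in every FLI1 library and that carried no detected acetylation of histone H3 at lysine 27 (H3K27ac). They were chosen by the deposited peak lists themselves: a row of the FLI1 list of set A replicate 1 on an autosome or X, overlapping a row in each of the other 3 FLI1 lists, with its summit within 1 kb of a protein-coding transcript start and no H3K27ac row of either replicate within 1 kb. The rule found 3427 regions among 35210 rows of that list (9.73%). They touched the starts of 3563 protein-coding genes.

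The series has 14 libraries of these cells in sets named A and B, and nothing in the labels says how the sets differ. FLI1 was mapped in both sets with 2 replicates each, H3K27ac in set A with 2 replicates, and H3K9me3 and H3K27me3 in set B with 2 replicates each. The other 4 libraries are IgG controls, and each deposited fold is a ratio over such a control. The labels do not say whether replicates came from separate cultures, so any p-value measures only the spread between these libraries. An antibody to FLI1 does not by itself tell the fusion from FLI1 protein without EWSR1. The groups compared below are sets of regions in this line. H3K27ac, which defines them, comes from set A alone and the repressive marks from set B alone, and whether conditions differed between the sets is not stated.

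EWSR1::FLI1 joins a transcription-activating part of EWSR1 to the DNA-binding ETS domain of FLI1. ETS proteins recognise a GGAA core, often within the longer stretch CCGGAAGT at promoters, and the fusion also binds runs of repeated GGAA units, many of them far from genes. H3K27ac marks active promoters and enhancers, H3K27me3 is laid down by polycomb complexes at silent developmental genes, and H3K9me3 marks heterochromatin and many zinc-finger gene clusters.

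The sequences shown first are from 6 of the 10 regions with the highest mean fold percentile, picked to show an ETS match beside the summit, described further on. Of the regions not shown, that of CFAP57 held CCGGAAGT, and those of ZNF558, ZNF333 and UTP11 held CCGGAA alone. In the 501 bp around the row's middle, the window used for the ETS counts further on, only SLC35C2, ERBB2 and MTMR4 of the 10 held CCGGAAGT. Each is read from hg38, 5′ to 3′ on the strand that spells the match as CCGGAA, with the match in capitals (CCGGAAGT where the row holds it, otherwise CCGGAA).
ANAPC15, chr11:72112667-72112696, plus strand: gccggcggcgacCCGGAAgcgcttcaccca
TRIM41, chr5:181223231-181223260, plus strand: gcctagaagggCCGGAAGTacttcagggcg
SLC35C2, chr20:46364395-46364424, plus strand: gaatctccccaCCGGAAGTgcgaggccgga
ERBB2 and PGAP3, chr17:39688056-39688085, minus strand: ttccggttactCCGGAAGTggaagcttcat
ISY1, chr3:129161091-129161196, plus strand: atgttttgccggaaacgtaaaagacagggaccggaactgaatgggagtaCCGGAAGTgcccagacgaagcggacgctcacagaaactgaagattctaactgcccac
MTMR4, chr17:58518237-58518342, minus strand: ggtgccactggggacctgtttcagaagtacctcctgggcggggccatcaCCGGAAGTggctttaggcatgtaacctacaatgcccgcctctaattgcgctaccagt
The matches at ANAPC15, SLC35C2 and ERBB2 lay in an annotated exon, that at TRIM41 in an intron, and those at ISY1 and MTMR4 outside exons and protein-coding gene bodies. They lay 107 bp (ANAPC15), 120 bp (TRIM41), 251 bp (SLC35C2), 119 bp (ERBB2), 85 bp (ISY1) and 144 bp (MTMR4) from the summit of set A replicate 1. None of the 6 was within 50 bp of that summit, which follows from how they were picked and is no separate result.

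A second kind of sequence was rare among these promoters, a run of at least 4 GGAA units within 250 bp of the summit. It was present at 12 of the 3427 regions (0.350%), against 674 of 7328 FLI1 regions (9.20%) that lay over 1 kb from a start and also had no H3K27ac. The runs at the 4 such members with the highest mean fold percentile are shown for contrast, with the run in capitals.
GUCY2F, chrX:109481016-109481135, plus strand: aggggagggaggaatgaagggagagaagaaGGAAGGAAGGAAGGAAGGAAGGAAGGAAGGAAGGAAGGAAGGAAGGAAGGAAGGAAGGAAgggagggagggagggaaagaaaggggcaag
CCK, chr3:42266807-42266918, minus strand: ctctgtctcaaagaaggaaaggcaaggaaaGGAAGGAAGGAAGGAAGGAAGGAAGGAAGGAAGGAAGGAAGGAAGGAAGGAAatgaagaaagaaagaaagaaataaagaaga
ACACB, chr12:109140186-109140285, minus strand: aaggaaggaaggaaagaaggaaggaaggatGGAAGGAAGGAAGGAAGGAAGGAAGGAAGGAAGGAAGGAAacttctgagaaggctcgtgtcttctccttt
DPF3, chr14:72892913-72893052, plus strand: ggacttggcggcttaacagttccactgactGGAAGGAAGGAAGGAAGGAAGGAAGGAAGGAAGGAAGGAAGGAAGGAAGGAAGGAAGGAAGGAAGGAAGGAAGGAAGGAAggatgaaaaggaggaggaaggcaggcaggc
The runs counted 15 units at GUCY2F, a retinal guanylate cyclase gene, 13 at CCK, which encodes the peptide cholecystokinin, 10 at ACACB, an acetyl-CoA carboxylase gene, and 20 at DPF3, which encodes a BAF complex subunit. Their summits lay 784 bp (GUCY2F), 891 bp (CCK), 598 bp (ACACB) and 903 bp (DPF3) from the start.

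FLI1-bound promoters divided almost evenly by the acetylation rule. Of 6655 FLI1 rows in all 4 lists at a promoter, 3427 (51.5%) had no H3K27ac within 1 kb. This share is the rule itself and is given as the background only. The other 3228 had an H3K27ac row, of replicate 1 alone at 436, of replicate 2 alone at 1107 and of both at 1685. The H3K27ac list of replicate 1 held 13974 rows and that of replicate 2 held 23368, and the files give no read totals, so a promoter without a row is one at which acetylation was not detected. The median distance from an unacetylated promoter to the nearest H3K27ac row was 33.9 kb (quartiles 10.3 and 104 kb). In 547 regions (16.0%) the nearest row lay over 1 kb but within 5 kb, and in 881 (25.7%) over 100 kb away. Just inside the H3K27ac limit were ABHD17A at 1002 bp, MYG1 at 1004 bp and KDM4B at 1005 bp, and just outside it CAVIN2 at 999 bp, PGP and EGLN2 at 998 bp. Just inside the start limit were PBX3 at 1000 bp, GRK5 at 996 bp and RAD18 at 994 bp, and the nearest regions outside it had summits 1002, 1005 and 1006 bp from a start.

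The regions with the highest FLI1 fold lay at genes of varied function. A region's strength is given as the percentile of its deposited fold within each list, because folds are not comparable between libraries, and regions are ranked by the mean over the 4 lists. TRIM41, which encodes a ubiquitin ligase (row chr5:181221591-181224274), had a FLI1 fold of 253 and 267 in set A, then 105 and 52.4 in set B. ISY1, a splicing factor gene (chr3:129159523-129163747), had 217 and 161, then 88.4 and 48.0. ERBB2, a receptor tyrosine kinase gene that shares its region with PGAP3 (chr17:39687305-39688691), had 154 and 186, then 62.4 and 46.7. By rank these 3 promoters were near the top of every list, and the lowest percentile was 99.5 (ERBB2, set B replicate 2).

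MTMR4, a phosphatidylinositol phosphatase gene, had a fold of 208 and 141 in the set A lists and 53.1 and 49.7 in the set B lists. UTP11, a ribosome biogenesis gene, had 79.8 and 99.2, then 80.1 and 64.4. By rank UTP11 was at percentiles 99.2 and 99.4 in set A and 99.9 in both set B lists, so the sets did not overlap. SLC35C2, a nucleotide sugar transporter-like gene, had 156 and 157, then 73.2 and 55.5. The shared region of CFAP57 and EBNA1BP2 had 144 and 164, then 113 and 50.3. The shared region of ZNF333 and ADGRE3 had 153 and 208, then 67.1 and 94.7. ANAPC15, a subunit of the anaphase-promoting complex, and the shared region of ZNF558 and MBD3L1 complete the first 10, which had mean percentiles between 99.6 and 99.9. The nearest H3K27ac row to these 10 lay between 2.06 kb (UTP11) and 307 kb (ZNF558) away.

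At the other end, the lowest mean percentiles were 10.9 at TBC1D16, 13.5 at SMAD3, 14.8 at TBC1D24, 15.3 at KCNN3 and 15.5 at NLGN4X. TBC1D16, a Rab GTPase-activating protein gene, had a fold of 4.48 and 5.20 in the set A lists and 3.96 and 4.06 in the set B lists. SMAD3, a mediator of TGF-beta signalling, had 4.78 and 2.97, then 3.83 and 7.01. Mean percentiles of the members thus ran from 10.9 to 99.9.

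**Figure D1:**
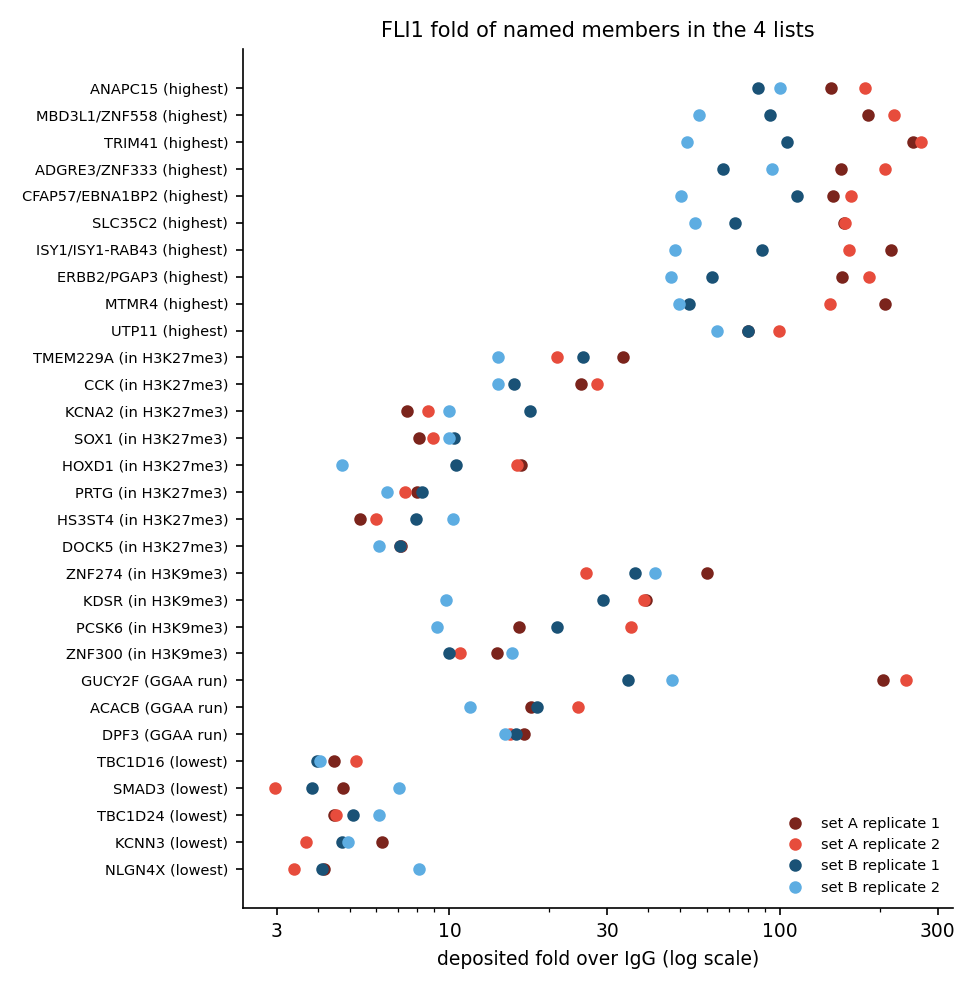
FLI1 fold over IgG (log axis) of named unacetylated promoters, 1 point for each of the 4 libraries. The 10 regions with the highest rank lie between 46.7 and 267, and those with the lowest rank between 2.97 and 8.10.

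By rank the unacetylated promoters were close to the acetylated ones in each FLI1 list. Presence in all 4 lists, which the rule requires, removes weak rows, and the median percentile of all 16804 such rows was 72.0, 76.7, 74.4 and 67.5 in the 4 lists, in the order set A replicates 1 and 2, then set B replicates 1 and 2. In set A replicate 1 the median percentile of fold was 73.3 for unacetylated and 75.1 for acetylated promoters, in set A replicate 2 it was 74.6 and 77.4, in set B replicate 1 it was 81.9 and 82.6, and in set B replicate 2 it was 75.1 and 76.7. The unacetylated median was lower in 4 of 4 libraries, with a mean difference of -1.73 percentile points (SD 0.849, n = 4). A two-sided exact sign-flip permutation test over the libraries gave p = 0.125 (n = 4), the smallest this design allows, and 0.25 after Benjamini-Hochberg adjustment over the 6 tests of this family, so the design could not reach 0.05. The middle 50% of both groups overlapped almost fully in every library. FLI1 and H3K27ac of set A share IgG controls, while set B FLI1 does not share them, and the differences were -1.75 and -2.80 points in set A, then -0.72 and -1.64 points in set B.

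The rows themselves were narrower without H3K27ac, but width is not independent of the rule. The 1 kb H3K27ac limit was measured from the edges of the set A replicate 1 row, so a wider row searched a wider span. The test below therefore cannot separate a difference in width from the rule. Fold and width come from the same rows, so this limit may also bear on the fold ranks of these 2 groups given above, which was not tested. Median widths were 678 bp against 794.5 bp in set A replicate 1, 645 against 745 bp in set A replicate 2, 760 against 823.5 bp in set B replicate 1 and 728 against 787 bp in set B replicate 2. On the log2 scale the difference averaged -0.17 (SD 0.06, n = 4), below 0 in 4 of 4 libraries (exact sign-flip permutation test, two-sided p = 0.125, adjusted 0.25).

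Against FLI1 regions over 1 kb from a start, without H3K27ac and without a GGAA run (6654 regions), the sets differed. The median percentile of the unacetylated promoters exceeded that of the distal regions by 16.1 and 16.7 points in set B, by 4.75 points in set A replicate 1, and was 0.25 points lower in set A replicate 2. The mean difference was 9.33 points (SD 8.43, n = 4), with a two-sided p of 0.25 in the exact sign-flip permutation test (adjusted 0.375). The spread between libraries was nearly as large as the difference. Over the 3427 members, ranks correlated more within sets (Spearman rho 0.79 in set A and 0.64 in set B) than across sets (0.41 to 0.45). These correlations are across regions of the same cells, which are not independent replicates.

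**Figure D2:**
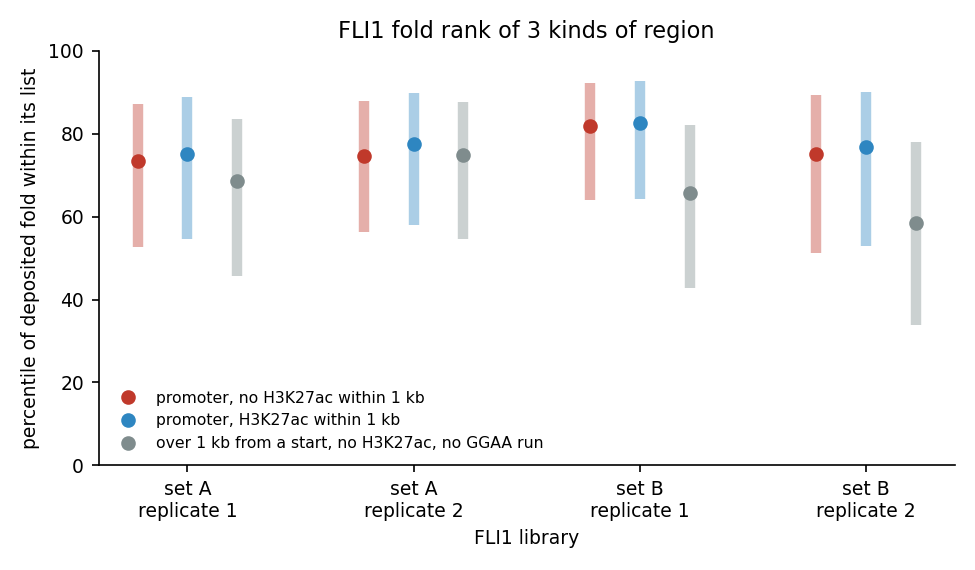
Percentile of the deposited FLI1 fold within each list, for 3427 promoters without and 3228 with H3K27ac within 1 kb and 6654 distal regions. Points are medians and bars run from the first to the third quartile over regions, and the distal median falls below both promoter groups in 3 libraries but not in set A replicate 2.

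Nearly all unacetylated promoters lay outside both repressive marks. Of the 3427, 3383 (98.7%) overlapped no H3K27me3 or H3K9me3 row of either replicate. H3K27me3 rows of both replicates overlapped 10 members (0.292%), against a background of 0.143% of all 16804 FLI1 regions in 4 lists. By replicate there were 17 members in H3K27me3 replicate 1 (0.496%, 95% exact binomial interval 0.289 to 0.793%) and 12 in replicate 2 (0.350%, 0.181 to 0.611%). None of the 3228 acetylated promoters overlapped a row of either replicate, a count for which the exact binomial upper bound is 0.114% and the limit of 3 counts is 0.0929%. These intervals and limits cover counting error only. Unacetylated minus acetylated shares averaged 0.423 points of percent (SD 0.103, n = 2). The exact sign-flip permutation test gave a two-sided p of 0.5 (adjusted 0.5), the smallest for 2 libraries.

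H3K9me3 was as rare. Rows of both replicates overlapped 5 members (0.146%), below the background of 0.72% of all FLI1 regions in 4 lists. By replicate the count was 25 (0.730%) and 5 (0.146%), against 1 and 0 acetylated promoters. The difference in share averaged 0.422 points of percent (SD 0.391, n = 2), with 0.699 in replicate 1 and 0.146 in replicate 2. The two-sided p was again 0.5 (exact sign-flip permutation test, adjusted 0.5).

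The starts without FLI1 give the level of the marks elsewhere. H3K27me3 lay within 1 kb of 22.0% and 18.9% of the 9175 gene starts with no FLI1 row of any list within 1 kb, by replicate, against 1.25% and 0.963% of the starts nearest to unacetylated FLI1 promoters. H3K9me3 lay within 1 kb of 4.10% and 2.55% of the former and 1.46% and 0.788% of the latter. These are descriptions of 2 sets of starts that differ in base composition: the median observed over expected CpG ratio was 0.772 at the unacetylated promoters and 0.358 at the starts without FLI1.

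The 10 members in H3K27me3 were at TMEM229A, CCK, KCNA2, SOX1, HOXD1, PRTG, HS3ST4, DOCK5, SERTAD4 and ATF3. SOX1 and HOXD1 encode developmental transcription factors and KCNA2 a potassium channel. Of these 10, 8 had their summit between 640 and 992 bp from the start, while the median over all members was 177 bp, and the exceptions were KCNA2 at 186 bp and HS3ST4 at 154 bp. TMEM229A had a FLI1 fold of 33.5 and 21.2 in the set A lists and 25.3 and 14.0 in the set B lists. CCK had 24.9 and 27.9, then 15.7 and 14.0. SOX1 had 8.09 and 8.92, then 10.3 and 9.95. HOXD1 had 16.5 and 16.0, then 10.5 and 4.72. TMEM229A and CCK stood above the other 8 in mean percentile, at 91.6 and 89.2 against at most 69.8.

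As a group these 10 ranked lower by fold than the members outside H3K27me3. The median percentiles were 61.2 against 73.6 and 63.6 against 74.7 in set A, and 58.4 against 82.0 and 62.2 against 75.2 in set B. The mean difference was -15.02 points (SD 5.77, n = 4), below 0 in 4 of 4 libraries (exact sign-flip permutation test, two-sided p = 0.125, adjusted 0.25). It did not keep its sign under a stricter overlap of the FLI1 rows: with 50% reciprocal overlap 2 of these members remained and the difference was 6.70 points.

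The 5 members in H3K9me3 of both replicates were ZNF274, KDSR, PCSK6, ZNF300 and ZNF606, 3 of them zinc-finger genes. ZNF274, which encodes a zinc-finger protein that itself recruits H3K9 methylation to zinc-finger genes, had a FLI1 fold of 60.1 and 25.8 in the set A lists and 36.4 and 41.9 in the set B lists. KDSR, an enzyme of sphingolipid synthesis, had 39.2 and 38.8, then 29.2 and 9.76. By rank KDSR was lowest in set B replicate 2, at percentile 64.3.

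ETS letters lay beside the summits and not at them. The 8-letter stretch CCGGAAGT, searched on both strands, occurred within 50 bp of the summit at 24 members (0.700%), and within 150 bp at 7.21%. In 501 bp around the middle of the FLI1 row, a window chosen after the data were seen, it occurred at 386 members (11.3%), against 14.1% of acetylated promoters, 2.43% of distal regions, 5.95% of all 19970 gene starts and 0.817% of starts without FLI1. The shorter CCGGAA, which the longer stretch contains, was present in the same window at 41.8%, 45.1%, 15.9%, 26.3% and 12.3% of these. For gene starts every window was centred on the start and not on a FLI1 row. The order depended on the window. In 101 bp the 8-letter stretch occurred at 0.700% of members, 0.434% of acetylated promoters and 3.39% of all gene starts. In 301 bp the shares were 7.21%, 7.65% and 5.16%. A match is a stretch of letters and does not show binding.

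The offset was alike in all 4 lists. Of 598 matches within 500 bp of the set A replicate 1 summits of members, 27 (4.52%) lay within 50 bp and 462 (77.3%) between 50 and 250 bp. In set A replicate 2 the share within 50 bp was 6.28%, in set B replicate 1 it was 9.33% and in set B replicate 2 it was 8.97%. The median position was 117 to 128 bp on the side of lower coordinates and 166 to 198 bp on the other. Measured from the middle of the row, 19.4% to 27.4% of matches lay within 50 bp, with a single broad peak. Acetylated promoters had the same gap at the summit, with 2.42% to 6.67% of matches within 50 bp.

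Measured from the transcript start, the same letters gathered just upstream. Of 598 matches within 500 bp of the nearest start, 242 (40.5%) lay within 50 bp of it, and 180 of these were in the 50 bp upstream. The median position was 36 bp upstream. The summits themselves had a median distance of 177 bp from the start, with 52.9% of them upstream of it, against a median of 152 bp at acetylated promoters. In acetylated promoters 39.1% of 711 matches lay within 50 bp of the start.

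**Figure D3:**
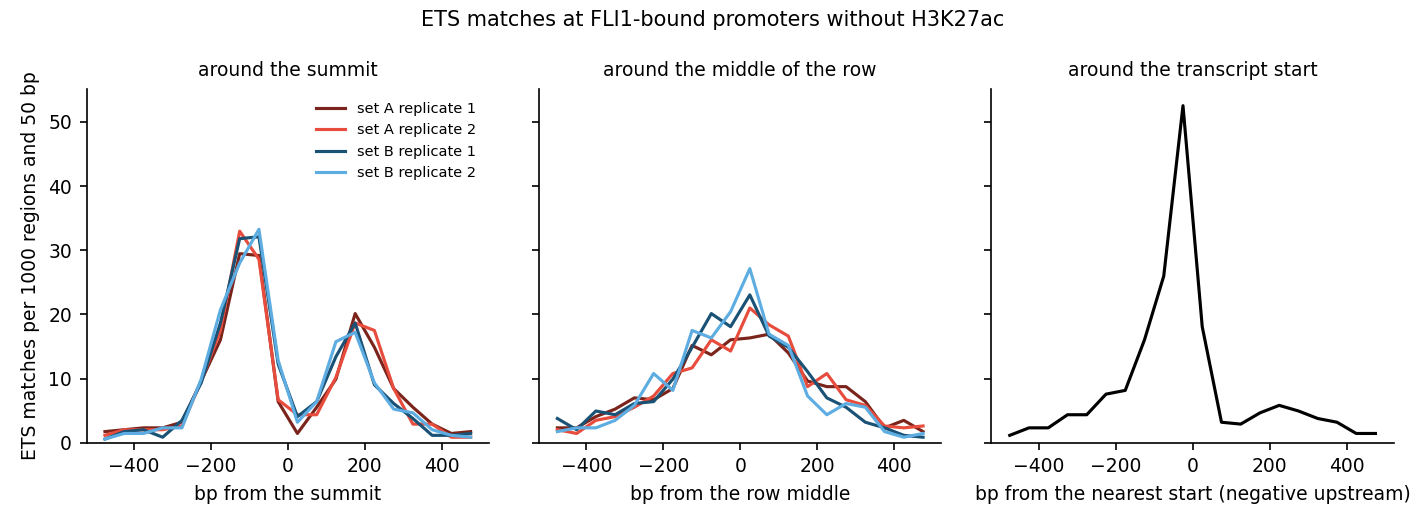
Matches to the ETS stretch per 1000 unacetylated promoters in bins of 50 bp, around the summit and the middle of the row in each of the 4 FLI1 lists and around the nearest transcript start. Matches flank the summit on either side and peak just upstream of the start, at 52.5 per 1000.

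Members with the ETS stretch had higher FLI1 folds. The median fold with and without it was 14.1 and 9.84 in set A replicate 1, 13.9 and 9.62 in set A replicate 2, 21.4 and 14.0 in set B replicate 1 and 17.3 and 11.3 in set B replicate 2. The 39 members with 2 or more matches had median folds of 31.9, 31.3, 28.0 and 25.7 in the same order. These are descriptions with no test, since the window was chosen after the data were seen. Ranked into 10 equal groups by mean percentile, 3.21% of the lowest and 32.1% of the highest group of members held the stretch, and at acetylated promoters 4.02% and 35.6%. The highest group also had its summits closer to the start (median 121 bp against 211 bp in the lowest) and closer to each other across the 4 lists (median range 42 bp against 326 bp). Starts on both strands within 1 kb were present at 20.4% of the highest group and 7.58% of the lowest.

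**Figure D4:**
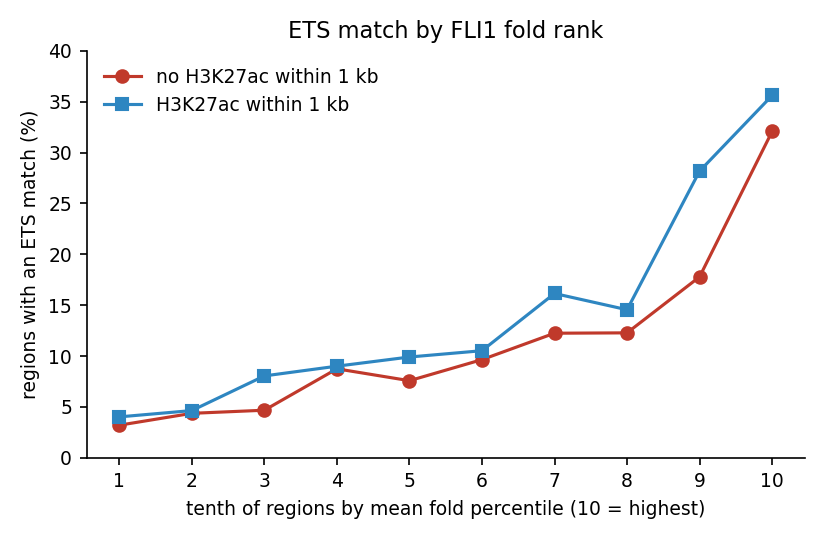
Share of FLI1-bound promoters with the ETS stretch in 501 bp around the row's middle, by 10 equal groups of mean fold percentile, for promoters without and with H3K27ac within 1 kb. The share in the unacetylated promoters runs from 3.21% to 32.1%.

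The unacetylated promoters were CpG-rich. Their median GC content in 501 bp was 63.7% and their median CpG ratio 0.772, against 62.3% and 0.784 at acetylated promoters and 45.1% and 0.232 at distal regions. Of the members, 81.9% had a ratio over 0.6. GGGCGG, the core of SP and KLF factor sites, was found in 501 bp around the row's middle at 77.0% of members and 74.1% of acetylated promoters. Other stretches were less frequent at members than at acetylated promoters: AAGATGGC (YY1) at 5.02% against 7.25%, and TCTCGCGA (BANP) at 1.78% against 3.31%. CCAATCA (NF-Y) was more frequent, at 11.9% against 9.51%. Starts on both strands within 1 kb were present at 403 members (11.8%) and 631 acetylated promoters (19.5%). These shares were not tested.

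Members were unevenly spread over the chromosomes. The share of FLI1-bound promoters that lacked H3K27ac ranged from 33.2% of 752 on chromosome 1 to 81.0% of 79 on chromosome 13. On chromosome 19, which holds large zinc-finger clusters, it was 73.7% of 594, and its 438 members were the most of any chromosome. It was 70.2% on chromosome 14, 67.6% on chromosome 3, 39.7% on chromosome 5 and 43.0% on chromosome 2 (198 of 461). H3K27ac itself varied alongside: rows of either replicate lay within 1 kb of 32.0% of all gene starts on chromosome 1, 8.67% on chromosome 13 and 15.4% on chromosome 19, while FLI1 rows in 4 lists lay within 1 kb of 36.0%, 22.0% and 40.9%. The chromosome pattern appeared in each H3K27ac replicate, with 49.6% and 41.6% of FLI1 promoters on chromosome 1 lacking a row of replicate 1 and of replicate 2, and 85.4% and 79.1% on chromosome 19. The number of copies of each chromosome in these cells was not measured here, and its part in these shares was not tested.

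Gene groups are described by how many of their FLI1-bound genes had an unacetylated region, beside 51.1% (3563 of 6973) for all FLI1-bound genes. The share is a consequence of the rule and carries no test. A gene with a member could also have an acetylated FLI1 region at its starts, as 190 of the 3563 did. Of all 19962 protein-coding genes, 6973 were FLI1-bound, the background for the bound counts below. Among 30 genes known as activated by the fusion, 16 were FLI1-bound at a promoter and 13 of those had a member. Of these 13, 2 also had an acetylated FLI1 region at their starts. JARID2, a polycomb cofactor gene, had a fold of 42.1 and 39.2 in the set A lists and 30.6 and 16.7 in the set B lists. BCL11B, a transcription factor gene, had 24.5 and 17.9, then 14.9 and 17.1. PRKCB, a protein kinase C gene, had 14.7 in both set A lists, then 12.9 and 23.4. IGF1, a growth factor gene, had 25.8 and 21.0, then 11.9 and 7.87. CAV1, which encodes caveolin, had 5.47 and 5.12, then 48.4 and 4.41. At CAV1 the set B replicate 1 row was 5718 bp wide, against 238 to 350 bp in the other lists, and its summit lay 3114 bp from the start, so its fold is that of a summit outside the 1 kb window. Summits lay over 1 kb apart across the 4 lists at 99 members (2.89%). Among them were 3 more fusion-activated genes, BCL11B (2109 bp), GSTM4 (2379 bp) and SOX2 (1784 bp), whose folds are thus not all from the same position.

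The other fusion-activated genes with a member were MYC, CCK, GSTM4, IL1RAP, E2F3, ID2, SOX2 and HEY1. At 3 of the 13 genes the nearest H3K27ac row lay within 1.5 kb: IL1RAP (1.16 kb), ID2 (1.25 kb) and CAV1 (1.33 kb). Among 19 genes known as repressed by the fusion, 6 were FLI1-bound and 5 had a member, TNC, VIM, NR2F2, TNFAIP3 and FN1. Of these 5, 1 also had an acetylated FLI1 region at its starts. TNC, a matrix protein gene, had a fold of 21.5 and 17.8 in set A and 10.2 in both set B lists. VIM, which encodes vimentin, had 13.0 and 9.26, then 16.1 and 11.3. Both directions of known regulation were therefore present among the unacetylated promoters. The rule accepts any protein-coding transcript start, so a member can lie away from its gene's 5′ end. The start used for PRKCB was at chr16:24151685, in CpG-poor sequence (ratio 0.219), and its distance from the gene's 5′ end is not given here. With gene 5′ ends only, 2905 of the 3563 genes (81.5%) were kept.

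Of 28 ETS family genes, 12 were FLI1-bound and 10 had a member. Of these 10, 2 also had an acetylated FLI1 region at their starts. ETV1, an ETS activator gene, had a fold of 21.6 and 13.6 in the set A lists and 17.0 and 12.2 in the set B lists. ETV6, an ETS repressor gene, had 9.71 and 16.7, then 20.6 and 12.5. ELK1, a ternary complex factor gene, had 9.85 and 10.2, then 18.0 and 15.6. The others were ETV5, ETV2, ELF2, ERF, ELF1, ELK3 and ETV4. The ELF2 member lay at a start at chr4:139084224, downstream of another ELF2 start at chr4:139177218. ETV4 overlapped an H3K27me3 row in replicate 1 alone.

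Zinc-finger genes, the largest list, were the group with the most members. Of 537 genes, 271 were FLI1-bound and 179 (66.1% of the bound) had a member. On chromosome 19, which holds large zinc-finger clusters, 73.7% of all FLI1-bound promoters lacked H3K27ac. The share of zinc-finger genes apart from their chromosome was not tested. Solute carrier genes had 62 of 97 bound (63.9%), cilium genes 27 of 46 (58.7%) and subunits of polycomb and BAF complexes 25 of 36 (69.4%). Of the last, PHF1 had a FLI1 fold of 33.5 and 25.2 in the set A lists and 37.1 and 41.1 in the set B lists, and ACTL6A had 28.6 and 21.2, then 59.9 and 44.5. Genes of the SOX, FOX, TBX and GATA and related families had 17 of 21 bound (81.0%), and developmental homeobox genes 20 of 35 (57.1%). No FLI1 row of any list was present at 65 of the 117 former and 76 of the 138 latter. Over all 19962 protein-coding genes this held for 9170.

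Several groups of housekeeping genes were mostly acetylated where FLI1 was bound. Mitotic genes had a member at 7 of 45 bound (15.6%), tRNA synthetases at 5 of 25 (20%), splicing genes at 16 of 66 (24.2%), respiratory chain genes at 18 of 53 (34.0%), DNA repair genes at 21 of 61 (34.4%) and cytosolic ribosome genes at 20 of 56 (35.7%). Other such groups lay nearer the 51.1% background: Mediator and Integrator at 13 of 29 (44.8%), vesicle sorting at 16 of 36 (44.4%) and RNA polymerases at 10 of 23 (43.5%). Peroxisome genes went the other way, at 7 of 10 (70%). The unacetylated promoters of housekeeping genes included some with high FLI1 folds. RPS19, a ribosomal protein gene, had 124 and 103 in the set A lists and 58.6 and 33.6 in the set B lists. RPL28, another, had 78.5 and 83.5, then 55.1 and 37.8. EXOC3, an exocyst subunit gene, had 70.4 and 75.7, then 40.1 and 34.3. DCLRE1C, which encodes the repair nuclease Artemis, had 14.8 and 42.0, then 64.7 and 30.1. By rank DCLRE1C was lowest in set A replicate 1, at percentile 85.4, and at 97.5 or above in the other 3 lists.

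Markers of other tissues were almost free of FLI1 regions of either kind. Of 415 olfactory receptor genes 0 were FLI1-bound in all 4 lists, of 55 keratin genes 1, which was acetylated, and of 18 blood cell marker genes 1, which had a member. Over all 19962 protein-coding genes, 6973 were FLI1-bound and 17.8% had a member. Few bound genes were not particular to such markers: 2 of 65 protocadherin, 3 of 44 collagen and 7 of 95 potassium channel genes were bound. The blood cell gene was CSF1R, a growth factor receptor gene, with a fold of 8.57 and 10.1 in the set A lists and 8.49 and 6.31 in the set B lists.

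**Figure D5:**
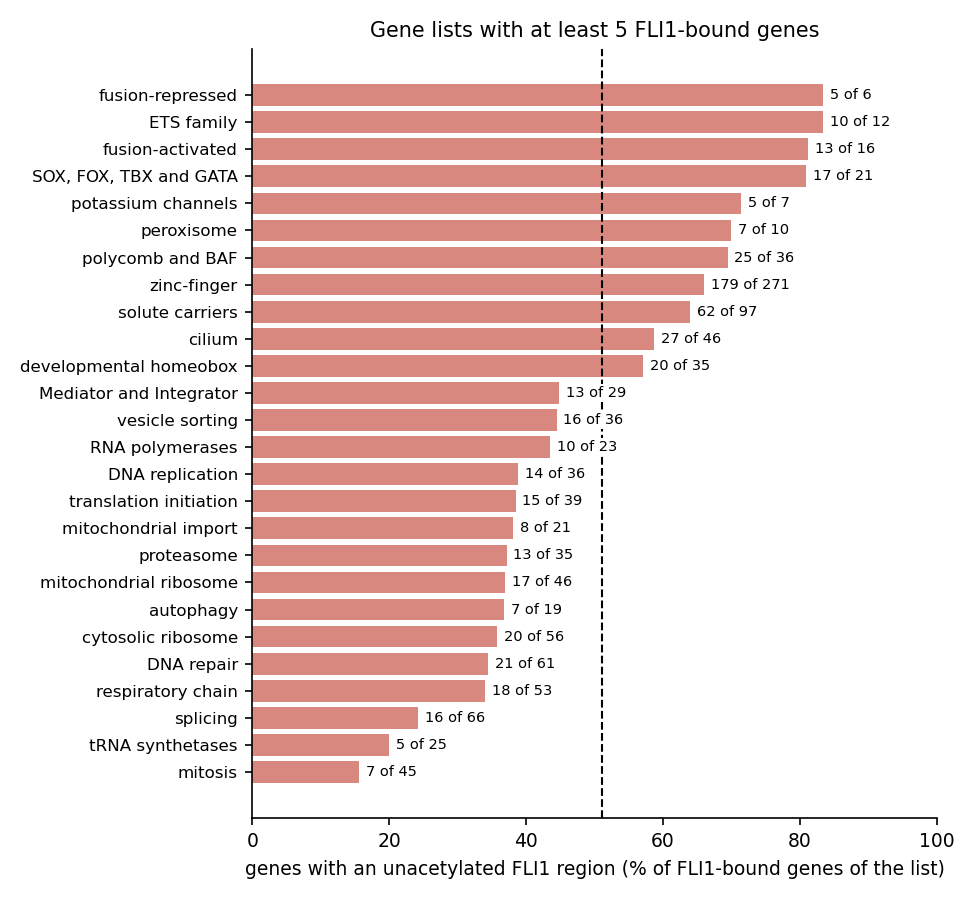
Share of FLI1-bound genes with an unacetylated FLI1 region, for each gene group with at least 5 bound genes, with counts at the bar ends. The dashed line is the 51.1% over all FLI1-bound genes, and shares run from 15.6% (mitosis) to 83.3% (fusion-repressed and ETS family).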

How the data were processed

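Of 14 CUT&RUN libraries, the 10 antibody libraries had a peak list each, and the IgG libraries were used through the deposited folds. Per the submitters' processing notes, cutadapt 4.4, Bowtie2, Picard 2.17.11, MACS2 2.1.1 and GRCh38/hg38 were used. Each list gives the authors' fold (a ratio over IgG), −log10 p-value, −log10 q-value and score per peak, and a summit. Lists were called per library, and the lowest −log10 q was 2.00 to 2.03. Depth is not given in the sources used here.

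Here, rows on the autosomes and X were kept, folds were ranked within each list, and overlap meant 1 shared base. Starts, exons and UTRs came from GENCODE release 44 and sequence from hg38. Tests were two-sided exact sign-flip permutations over libraries, adjusted by Benjamini-Hochberg over 6 tests, after a check on simulated regions. Alternatives covered the H3K27ac and start limits, the overlap, the ranking measure and each library. The members, gene lists and tests were chosen with earlier results of these data known. Named genes were the highest and lowest by mean percentile, the highest with each mark or a GGAA run, all members of the fusion and ETS lists, up to 3 of each other list, and those nearest each limit. The genes SERTAD4, ATF3 and ZNF606, and the chromosomes, were named after their values were seen. Python 3.11.15, numpy 2.4.6, pandas 2.3.3, scipy 1.17.1, pysam 0.24.0 and matplotlib 3.10.9 were used.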

Additional observations from a re-analysis of the deposited data

How the results depend on the processing

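The number of unacetylated promoters was between 2653 and 4534 under 11 of 12 alternatives, and 1514 with 50% reciprocal overlap of the FLI1 rows. Leaving out 1 H3K27ac or FLI1 library gave 3545 to 4534. With 50% reciprocal overlap the rank difference with H3K27me3 turned to 6.70 points, over 2 members. It was -21.25 to -5.02 under the other 14 alternatives. The difference in fold rank from acetylated promoters was -3.96 to -0.55 points over 14 alternatives, that from distal regions 7.29 to 11.88 over 15, the width difference -0.25 to -0.14 (log2) over 13, and the share differences 0.198 to 1.21 (H3K27me3) and 0.102 to 1.19 (H3K9me3) percentage points over 17 each, all with the direction given. The share with CCGGAAGT, 0.700% in 101 bp around the summit, was 7.21% in 301 bp and 11.3% in 501 bp around the row's middle, a window added after seeing the data. Of 372 gene list counts under alternatives, 51 moved by over 1.5 times, and of 605 mean percentiles of named regions, 6 moved by more than the spread between lists. The sign-flip tests compare regions within each library. No paired analysis was possible because no sample groups with shared replicate numbers were compared with each other. Without read totals, a missing row may reflect depth.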

Other observations

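On the plus strand of the genome, ETS matches at the unacetylated promoters were more numerous on the side of lower coordinates than on the other: 351 against 246 around the summits of set A replicate 1, 361 against 244 in set A replicate 2, 387 against 224 in set B replicate 1 and 387 against 225 in set B replicate 2. Around the middle of the row the counts were 278 against 303, 263 against 328, 311 against 293 and 305 against 295. The side therefore depended on the reference point, in the same direction in all 4 lists for the summit and in differing directions for the row's middle. Acetylated promoters leaned the same way around the summit, at 380 against 323, 383 against 316, 459 against 260 and 451 against 269. Around the row's middle they had 313 against 354, 300 against 374, 357 against 354 and 368 against 347. The pattern was thus not particular to unacetylated promoters. The cause was not tested.

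Where 2 genes shared a region, the FLI1 row could not be assigned to either of them: 458 of the 3427 unacetylated regions had starts of 2 or more protein-coding genes within 1 kb of the summit, and 190 genes had both an unacetylated and an acetylated FLI1 region at their starts.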
